A study of Mus musculus with 2 samples.

Results

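The genes described here encode the proteins that carry other proteins into mitochondria and the proteins of the ribosome inside mitochondria. They were chosen by symbol alone, as every gene of the count tables whose symbol begins with Timm, Tomm, Mrpl or Mrps followed by a digit, with 5 symbols of pseudogenes left out. That gave 104 of 55414 gene identifiers, namely 15 Timm, 11 Tomm, 49 Mrpl and 29 Mrps genes. They lie on 20 chromosomes. RNA-seq read counts were compared for 2 cultures of the mouse embryonic stem cell line R1E, genotype WT, grown in serum medium with leukemia inhibitory factor. The untreated library is labelled 0 h. The other came from cells kept for 8 h with 0.5 µM Adriamycin (doxorubicin), a topoisomerase II poison that breaks DNA. With a single library for each condition there is no replicate, and neither a test nor a p-value could be given. Every ratio below describes these 2 libraries, and the drug, the time in culture and any difference between the cultures cannot be told apart.

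Nearly all mitochondrial proteins are encoded in the nucleus, made in the cytosol and imported. The TOM complex of the outer membrane is the entry gate. Behind it the TIM23 complex passes proteins with a cleavable leader into the matrix, the TIM22 complex inserts carrier proteins into the inner membrane, and small TIM proteins chaperone them across the space between the membranes. The mitochondrial ribosome has a large and a small subunit, whose proteins are all imported, and translates the few messages of mitochondrial DNA, which encode core parts of the respiratory chain. Dividing stem cells make these proteins continually for each new generation of mitochondria.

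The libraries held 41820999 (untreated) and 38561292 (Adriamycin) reads. The 9 stem cell markers checked lay between 157.7 and 1094 CPM in both, and summed to 6140 CPM untreated and 3646 CPM with Adriamycin (CPM is the count scaled to a common library size). Of 6 fibroblast markers, the type of feeder cells, Col3a1 and Postn were at 0 reads in both libraries, and the list summed to 35.0 CPM untreated and 68.5 CPM with Adriamycin. Most of that difference was Col1a1, with 214 and 1295 reads (5.92-fold higher), and Pdgfrb had 636 and 971 reads. The summed levels of 5 blood markers were 38.4 and 43.0 CPM, of 4 endoderm markers 52.12 and 50.04, and of 4 neuroectoderm markers 155.6 and 114.3. The neuroectoderm markers went in both directions, with 5592 and 2893 reads for Tubb3, 208 and 1455 for Neurod1, 151 and 25 for Pax6 and 239 and 262 for Sox1. The part of such cells, or of the lower stem cell marker levels, in the results below was not tested. In RNA from a whole culture, fewer cells of a type and less RNA per cell cannot be told apart. Mdm2 and Cdkn1a, which p53 induces after DNA damage, were 7.16-fold and 3.10-fold higher in the Adriamycin library.

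Most of the import and ribosome genes differed little between the libraries, and more of them lay below the untreated level than above it. Of the 104 genes, 100 were measured, a gene being measured when its 2 libraries average 1 CPM or more. Their levels ran from 2.21 CPM (Timm8a2) to 449.7 CPM (Tomm70a) in the untreated library, with a median of 51.3 CPM, and from 2.29 (Timm10b) to 230.7 CPM (Tomm70a) in the Adriamycin library, with a median of 41.9 CPM. Only 2 of the 100, Mrpl16 and Timm8a2, passed 2-fold upward from untreated to Adriamycin, against 17.0% of the 14871 measured genes. At least 2-fold lower was 1, Mrps18b, against 6.95%, and none when libraries were scaled by their totals. In all, 24.0% of measured genes passed 2-fold in either direction. At a 1.5-fold rule 3 of the 100 were higher (25.7% of measured genes) and 17 lower (18.9%). The 17 became 9 when scaled by totals (13.5% of measured genes) and 25 by upper quartiles (25.1%). The other 80 stayed within 1.5-fold, against 55.5% of measured genes, a share that varied with level as given below.

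The log2 ratio of Adriamycin over untreated had a median of -0.28 over the 100 genes, with 78 below 0 and 22 above, and quartiles of -0.46 and -0.04. Over all measured genes the median was -0.03 and the quartiles were -0.46 and 0.61. The lower quartiles were thus alike, and the import and ribosome genes lacked the wide upper range of the whole set. That range varied with level. The upper quartile over all genes was 1.17 at 1 to 10 CPM, where 8 of the 100 lie. At 30 to 100 CPM, where 59 lie, it was 0.31, and at 100 CPM and more 0.09. The distance of the 100 genes' median from that of all genes was -0.26. This distance was also -0.26 when libraries were scaled by their totals or by edgeR's upper-quartile method. That is no check of it, because a scaling shifts all ratios together and can hardly move the distance. The level required of a measured gene did move it. The distance was -0.19 with that level raised to 5 CPM (96 genes of the set). With no level required it was -0.38 (103 genes). Scaling by totals and by upper quartiles shifted all ratios by 0.14 and -0.12. The sign of a ratio closer to 0 than that therefore depends on the scaling. The count below 0 was 62 by totals and 87 by upper quartiles. Together the 100 genes took 0.599% of reads when untreated and 0.522% after Adriamycin.

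**Figure D1:**
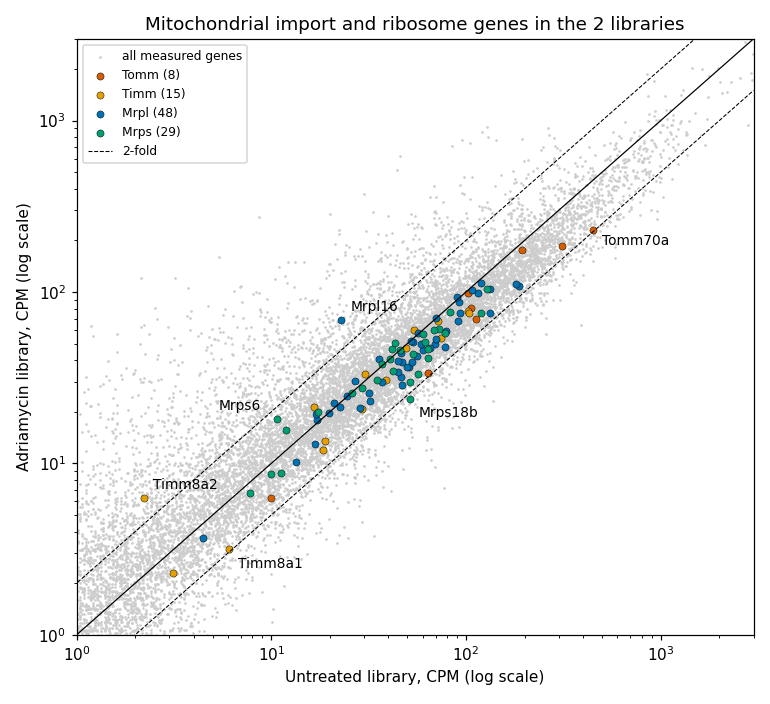
Level of each gene in the untreated library (horizontal axis, CPM, log scale) against the Adriamycin library (vertical axis, CPM, log scale), 1 point per gene, with all 14871 measured genes in grey. The 100 coloured genes follow the diagonal within the dashed 2-fold lines except Mrpl16 and Timm8a2 above and Mrps18b below, and Tomm70a and Timm8a1 sit close to the lower line.

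The TOM genes had the lowest ratios of the 4 import groups. All 8 measured ones were below 0 (6 when scaled by totals, with Tomm20 and Tomm7 above), with a median log2 ratio of -0.69, and 5 were at least 1.5-fold lower, against 18.9% of measured genes. When scaled by totals 3 of the 8 were, against 13.5%. These shares are over genes of all levels. Tomm70a, Tomm40, Tomm20 and Tomm7 averaged 100 CPM or more, where ratios over all genes ran lower. In that band the median was -0.31 and the lower quartile -0.63 over 2521 genes. The other TOM genes lay in lower bands. Tomm70a, the receptor for carrier proteins delivered by chaperones (chromosome 16, 56942066 to 56977068, GRCm39), had 17886 reads untreated and 9354 with Adriamycin. That is a log2 ratio of -0.96, with a 95% counting interval of -0.9993 to -0.9269. This and all later intervals in parentheses cover counting error only and say nothing of the spread between cultures. Tomm22, the central receptor, had 4471 and 2808 reads (-0.70, -0.77 to -0.63). Tomm20, the receptor that recognises leader sequences, stood apart from both with 7690 and 7161 reads (-0.13, -0.18 to -0.08). The 3 import receptors thus covered a range from near no difference to just short of 2-fold lower.

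Tomm40 forms the channel itself. It had 12394 and 7481 reads (log2 ratio -0.76, -0.80 to -0.71). Its relative Tomm40l had 397 and 254 reads (-0.67, -0.91 to -0.44), but 64.3% of its exon bases are shared with another gene, mainly Nr1i3 on the opposite strand, so its reads come from the remainder. The small subunits Tomm5 and Tomm7, which stabilise the channel, differed. Tomm5 had 2545 and 1371 reads (-0.92, -1.02 to -0.83), and Tomm7 had 4070 and 3992 (-0.06, -0.12 to 0.01). Tomm34, a cytosolic co-chaperone of import, had 4218 and 3271 reads (-0.39). Tomm6, the third small subunit, could not be measured, with 7 and 5 reads, and 84.2% of its exon bases are shared with other genes of the annotation. Tomm6os, which the symbol rule takes in, is a transcript opposite Tomm6 and not an import gene, and had 15 and 5 reads. Tomm20l, a relative of Tomm20, had 1 and 15 reads, a log2 ratio of 3.35 with an interval of 1.18 to 9.27, and its exons overlap those of Timm9 by 49 bases.

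Among TIM23 genes, 5 of 6 were below 0 (3 when scaled by totals, with Timm17a and Timm17b above), with a median of -0.24. At least 1.5-fold lower was 1 of the 6 (16.7%), close to the 18.9% of measured genes. This count was 0 by totals (13.5% of measured genes) and 2 by upper quartiles (25.1%). Timm23, the core subunit of the complex, had 735 reads untreated and 483 with Adriamycin (log2 ratio -0.63, -0.80 to -0.47). Timm50, the receptor facing the space between the membranes, had 4084 and 3151 reads (-0.40), and Timm44, which holds the import motor at the exit, had 2956 and 2186 (-0.46). The paralogues Timm17a and Timm17b, subunits that sit beside Timm23 in alternative forms of the complex, lay close to each other at -0.09 and -0.05. Timm21, which links the complex to TOM and to the respiratory chain, was the exception with 658 and 870 reads (0.37, 0.23 to 0.52). The 3 genes of the TIM22 group had a median of 0.13 but a mean of -0.05. Timm22, its channel subunit, had 1205 and 1345 reads (0.13), and Timm29, its partner, had 2145 and 2422 (0.15). The third, Timm10b, had 124 and 93 reads (-0.44, -0.85 to -0.04).

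**Figure D2:**
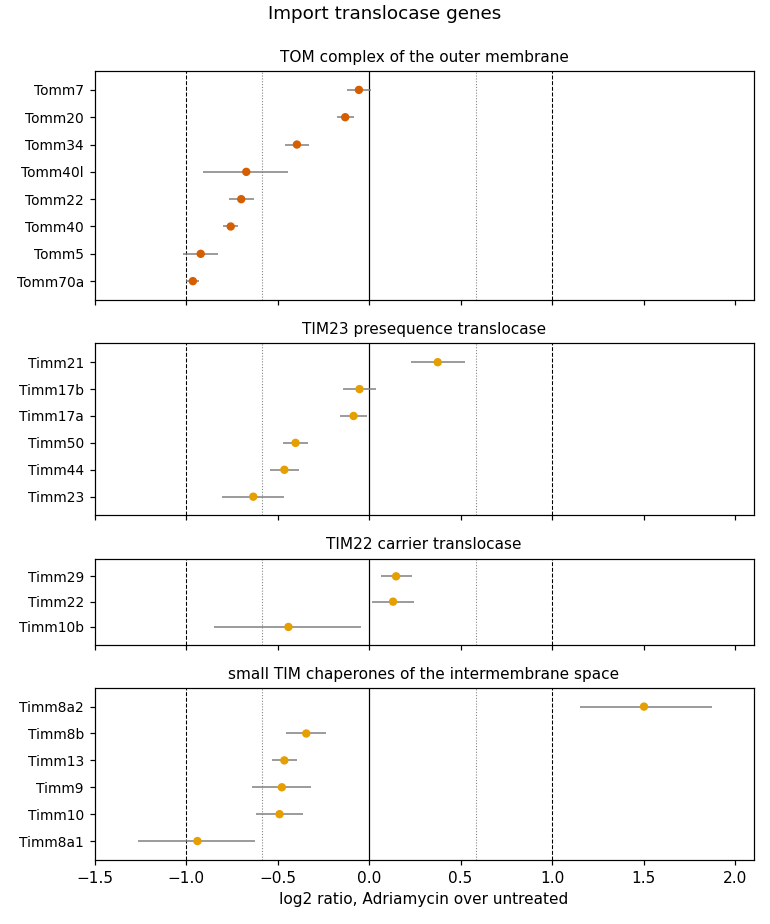
Log2 ratio of Adriamycin over untreated for the 23 measured import genes in 4 groups, with 95% counting intervals as bars, dashed lines at 2-fold and dotted lines at 1.5-fold. Every TOM gene lies below 0 with this scaling (not Tomm20 and Tomm7 when scaled by totals), and Timm8a2 is the only import gene beyond a dashed line.

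The small TIM chaperones include a pair of related genes that differed in opposite directions. Timm8a1 (X chromosome, 133438005 to 133442614) had 241 reads untreated and 128 with Adriamycin, 1.92-fold lower (log2 ratio -0.94, -1.26 to -0.63). Timm8a2 (chromosome 14, 122272086 to 122275832) had 88 and 255 reads, 2.83-fold higher (1.502, 1.15 to 1.87). Per exon length (TPM, a level scaled by exon length and library total) Timm8a1 went from 15.2 to 8.52 and Timm8a2 from 8.62 to 26.4, so the order of their levels was opposite in the 2 libraries. The coding sequences of these paralogues have the same length of 291 bases and are 77.3% identical, by alignment of GENCODE M21 transcripts. The other 4 small TIM genes lay close together, with log2 ratios of -0.49 (Timm10), -0.48 (Timm9), -0.46 (Timm13) and -0.34 (Timm8b). Timm13 partners Timm8 proteins, and Timm9 partners Timm10.

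The stretches before the start sites of Timm8a1 and Timm8a2 are shown because these paralogues differed in direction. Each run is the 250 bases upstream of the RefSeq start on GRCm38.p6, 5′ to 3′ on the gene's strand. Capitals mark matches on either strand to 4 motifs. The first is CCGGAAG, the core bound by ETS family factors. Another is the E-box CACGTG, where MYC family and other helix-loop-helix factors bind. The others are the TATA box, written TATAAA, and the NRF1 motif, which none of the runs holds.
Timm8a1: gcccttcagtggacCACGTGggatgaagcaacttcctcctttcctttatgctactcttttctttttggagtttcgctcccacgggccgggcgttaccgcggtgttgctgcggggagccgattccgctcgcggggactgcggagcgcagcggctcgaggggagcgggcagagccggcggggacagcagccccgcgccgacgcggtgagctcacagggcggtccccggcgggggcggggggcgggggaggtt
Timm8a2: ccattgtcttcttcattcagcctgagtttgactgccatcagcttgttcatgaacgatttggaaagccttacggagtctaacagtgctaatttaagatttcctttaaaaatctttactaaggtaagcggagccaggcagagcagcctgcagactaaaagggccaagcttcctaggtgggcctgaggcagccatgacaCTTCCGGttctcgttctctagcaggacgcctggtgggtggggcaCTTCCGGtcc
The Timm8a1 run lies on the minus strand of chromosome X at 134541671 to 134541920, and holds 1 E-box and no ETS core. The Timm8a2 run lies on the plus strand of chromosome 14 at 122034424 to 122034673, and holds 2 ETS cores in reverse orientation, whose first bases are 54 and 10 bases before the start. A match in these letters is a description and shows no binding.

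In the large subunit, 42 of 48 measured genes stayed within 1.5-fold, 5 were at least that much lower and 1 higher, with a median log2 ratio of -0.30. Over all measured genes these shares were 55.5%, 18.9% and 25.7%. The 5 lower became 2 when scaled by totals (13.5% of measured genes) and 9 by upper quartiles (25.1%). The lowest was Mrpl12, the stalk protein that recruits translation factors, with 5294 and 3079 reads (-0.81, -0.87 to -0.75). Next came Mrpl15 with 7446 and 4391 reads (-0.79), Mrpl40 with 1865 and 1158 (-0.72), Mrpl18 with 3104 and 1935 (-0.71) and Mrpl17 with 7176 and 4488 (-0.70). Exons of Mrpl18 overlap those of Tcp1, a chaperonin gene on the opposite strand that was itself at -0.77. The middle of the subunit lay close together, with quartiles of -0.44 and -0.06.

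Mrpl16 had the largest ratio of all 100 genes. Its product is the mitochondrial form of a bacterial-type ribosomal protein of the large subunit core. The gene (chromosome 19, 11747755 to 11752324) had 909 reads untreated and 2770 with Adriamycin, from 22.9 to 68.3 CPM, which is 2.99-fold higher (log2 ratio 1.58, 1.47 to 1.69). By level per exon length it went from rank 81 to rank 41 among the 104 genes. None of its exon bases is shared with another gene. Stx3, a membrane fusion gene on the opposite strand whose 3′ end lies 157 bases from that of Mrpl16, had 1304 and 2504 reads (log2 ratio 0.91), and the counting did not use strand. Its part in the Mrpl16 value was not tested. The next ratios in the large subunit were far lower, with 0.19 for Mrpl27, 0.19 for Mrpl34, 0.17 for Mrpl54 and 0.09 for Mrpl33.

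The upstream run of Mrpl16 is shown as that of the gene farthest above the untreated level, beside that of Tomm70a, the gene of the set with the most reads and the lowest of the TOM group. Capitals mark the same motifs as above.
Mrpl16: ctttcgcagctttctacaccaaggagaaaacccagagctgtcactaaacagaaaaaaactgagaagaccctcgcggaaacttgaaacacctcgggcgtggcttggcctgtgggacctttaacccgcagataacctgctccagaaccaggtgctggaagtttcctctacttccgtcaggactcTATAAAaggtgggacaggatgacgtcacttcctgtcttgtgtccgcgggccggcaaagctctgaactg
Tomm70a: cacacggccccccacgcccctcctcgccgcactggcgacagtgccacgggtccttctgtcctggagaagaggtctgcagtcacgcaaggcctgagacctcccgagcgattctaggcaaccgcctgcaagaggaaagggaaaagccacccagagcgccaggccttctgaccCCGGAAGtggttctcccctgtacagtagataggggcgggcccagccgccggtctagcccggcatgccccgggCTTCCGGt
The Mrpl16 run (GRCm38.p6, chromosome 19, 11770165 to 11770414, plus strand) holds a TATA box whose first base is 68 bases before the start. The Tomm70a run (chromosome 16, 57121464 to 57121713, plus strand) holds 2 ETS cores, 1 on each strand, beginning 80 and 8 bases before the start.

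The small subunit is taken here by symbol, as all 29 Mrps genes. A symbol does not always give the place of the product, and this was not checked for every gene. Mrps30 and Mrps36, for example, are included, although their products belong elsewhere, as given below. Of the 29 genes 23 stayed within 1.5-fold, 5 were at least that much lower and 1 higher, with a median of -0.20. The 5 lower are 17.2% of the 29, close to the 18.9% of all measured genes. They became 3 when scaled by totals (13.5% of measured genes). Mrps18b, one of 3 relatives of a bacterial small subunit protein (chromosome 17, 36221271 to 36227281), had 2045 reads untreated and 963 with Adriamycin. It was 2.16-fold lower (log2 ratio -1.11, -1.2264 to -1.0031), and with counts divided by 2 the interval reached -0.96. When scaled by totals its ratio was -0.97, short of 2-fold. Of its exon bases 30.5% are shared, mostly with Gm16279 on the opposite strand (53 and 42 reads). Its relatives lay nearer to 0, with 444 and 356 reads for Mrps18c (-0.35) and 1473 and 1547 for Mrps18a (0.04). The 3 coding sequences are 60.0% to 65.1% identical. Several genes within 60000 bases of Mrps18b were lower as well, among them Ppp1r18 (2.99-fold), Nrm (2.46-fold) and 2310061I04Rik (2.21-fold). Ppp1r10, which starts 45 bases away on the opposite strand, was at 0.18, and Dhx16 was 1.65-fold higher. So the neighbourhood held values in both directions.

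Below the 1.5-fold line were also Mrps12, the decoding centre protein, with 2052 and 1219 reads (-0.78, -0.88 to -0.68), and Mrps30 with 2254 and 1345 reads (-0.77, -0.87 to -0.67). Structures place the Mrps30 product in the large subunit despite its name. Mrps5, another bacterial-type protein, had 4753 and 3067 reads (-0.66), and Mrps27, an RNA-binding protein of the subunit, had 2546 and 1672 (-0.63). On the other side Mrps6 (chromosome 16, 91855158 to 91909115) had 425 and 736 reads, 1.70-fold higher (0.76, 0.59 to 0.94). Mrps6 shares 159 exon bases with Slc5a3, a transporter gene on the same strand inside its span, which had 708 and 1796 reads (1.31), and what Slc5a3 adds to the Mrps6 reads was not tested. Mrps34 followed at 0.39 with 474 and 632 reads, but 77.8% of its exon bases are shared, mostly with Mapk8ip3, which was at 0.97. Then came Mrps26 (0.22), Mrps21 (0.20) and Mrps15 (0.15).

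**Figure D3:**
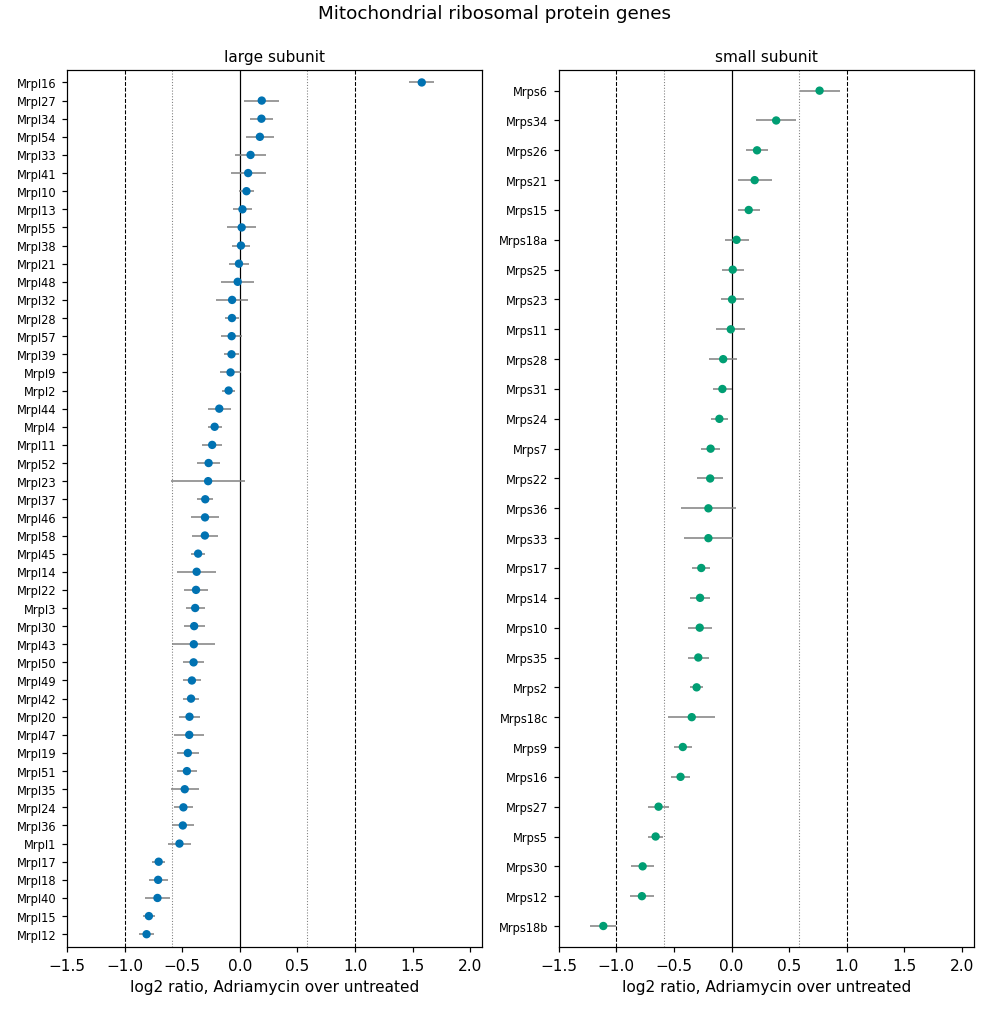
Log2 ratio of Adriamycin over untreated for the 48 measured large subunit genes and the 29 Mrps genes, placed in the small subunit by symbol. Genes are sorted, with 95% counting intervals as bars, dashed lines at 2-fold and dotted lines at 1.5-fold. Apart from Mrpl16 the large subunit runs from -0.81 to 0.19, and apart from Mrps6 and Mrps18b the small subunit runs from -0.78 to 0.39.

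The ribosomal proteins can be divided into those with a bacterial counterpart and those found only in mitochondrial ribosomes, a division made here after the values were seen. In the large subunit the medians were -0.38 for 29 bacterial-type genes and -0.30 for 19 mitochondria-specific ones. Among the Mrps genes they were -0.27 for 17 and -0.08 for 11 (Mrps30 among them), the latter above 0 (0.06) when scaled by totals. Mrps36 belongs to neither, since its product is a subunit of the 2-oxoglutarate dehydrogenase complex, and it had 308 and 273 reads (-0.20). The classes overlapped over most of their ranges. Mrpl53 was at 0 reads in both libraries, and 88.0% of its exon bases are shared with other genes, mainly a longer gene model on the same strand, so its 0 does not show lack of expression. Pseudogene symbols of the set held few reads, at most 115 untreated (Mrpl48-ps).

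Levels per exon length (TPM in the untreated library) spread widely within the ribosome. The highest ribosomal genes were Mrpl2 with 365.1 TPM, Mrpl12 with 309.1, Mrpl28 with 276.8, Mrpl34 with 208.6 and Mrps24 with 200.9. Mrpl2 remained first among the 104 genes in the Adriamycin library and Mrpl28 went from rank 4 to rank 3, while Mrpl12 went from 3 to 9. Of import genes, Tomm7 with 323.6 TPM and the small TIM genes Timm13 with 269.4 and Timm8b with 266.9 ranked among the first 6. Per length, Tomm70a ranked only 16, since its annotated exons are long. Exon length here is the union of all annotated isoforms, which lowers the value of genes with long rare isoforms.

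Level and gene size were compared because ratios over all genes varied with level, in level bands added after the values were seen. In the band from 30 to 100 CPM, where 59 of the 100 genes lie, the median log2 ratio was -0.30 for those 59 and -0.14 for all 4156 genes. In the band from 10 to 30 CPM the medians were -0.02 for 21 and 0.05 for 3171 genes. In the bands with few of them they were -0.31 for 8 and 0.31 for 5023 genes (1 to 10 CPM), and -0.33 for 12 and -0.31 for 2521 genes (100 CPM and more). The difference in median from other genes of like level was thus unequal across the bands and smallest at the top. Within 1.5-fold were 5 of 8 genes of the set at 1 to 10 CPM (42.66% of all genes). These were 19 of 21 at 10 to 30 CPM (59.57%), 49 of 59 at 30 to 100 CPM (64.87%) and 7 of 12 at 100 CPM and more (60.41%). Past 2-fold were 37.51% of all genes at 1 to 10 CPM and 14.75% at 30 to 100 CPM. By span of the gene the medians of the set lay between -0.37 and -0.25 in each of 4 bins, and those of all genes between -0.14 and 0.02.

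Many of these genes lie close to others. Of the 100, 41 share exon bases with another gene, and the 59 that do not had a median of -0.27. A measured gene on the opposite strand starts within 1000 bases of 38 of them, which makes 37 distinct pairs. The partners had a median log2 ratio of -0.18, from -0.89 (Ncapd2, beside Mrpl51) to 1.52 (Pnpla7, beside Mrpl41), and 2 of them were at least 2-fold higher, against 17.0% of measured genes. The other was Tmem63b at 1.47, beside Mrpl14 at -0.38. Across the pairs the correlation of the ratios was r = 0.25 (n = 37, with libraries shared and some exons overlapping), a weak relation given only as a description.

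Promoters of 92 of the 104 genes were in the RefSeq table. In the 250 bases before the start, the ETS core CCGGAAG occurred on either strand in 26 of the 92 (28.3%), against 15.0% of 10884 measured genes and 7.83% of all 27025 genes in the table. The palindromic NRF1 motif was in 11 (12.0%, against 8.72% of measured and 4.23% of all genes). The E-box CACGTG was in 9 (9.78%, 9.84% and 6.86%), TATAAA in 7 (7.61%, 7.72% and 14.3%) and the GC box GGGCGG in 43 (46.7%, 64.0% and 35.4%). A long form of the YY1 motif was in 1 gene (1.09%, 0.744% and 0.359%). The p53 half-site was in 5 (5.43%, 7.34% and 8.20%). Genes with and without the ETS core had median log2 ratios of -0.38 (25 measured genes) and -0.28 (63), and those with and without the NRF1 motif -0.13 (11) and -0.30 (77).

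Other genes of mitochondrial protein supply also stayed mostly within 2-fold. Of 22 other import genes 0 passed 2-fold in either direction, with a median of -0.14 that was 0.001 when scaled by totals. The chaperone genes Hspa9, the motor of TIM23, and Hspd1, the matrix chaperonin, were lowest at -0.66 (53960 and 34884 reads) and -0.67 (33031 and 21118 reads). Gfer, an oxidase of the space between the membranes, was highest at 0.81 (3143 and 5634 reads). The 5 further ribosomal protein genes with other symbols were all below 0, from -0.66 (Gadd45gip1) to -0.28 (Aurkaip1), with a median of -0.34. Genes of ribosome assembly and rRNA modification had a median of -0.05 over 20, above 0 with total counts (0.09), from Nsun4 at -0.50 to Mpv17l2 at 0.65. Translation factors had -0.31 over 13, from Guf1 at -0.56 to Taco1 at 0.82. The 20 mitochondrial aminoacyl-tRNA synthetase genes, which charge tRNAs, had a median of -0.25, from Yars2 at -0.89 to Cars2 at 0.99. In each of these 5 lists no gene reached 2-fold, against 24.0% of measured genes in either direction, although Cars2 did so when scaled by totals and Yars2 by upper quartiles.

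The 81 nuclear-encoded subunits of the respiratory chain, which work beside the products of mitochondrial translation, had a median of -0.08, or 0.06 with total counts. Of these 1 was at least 2-fold higher, Cox6b2 (2459 and 6316 reads, 1.33), and 0 lower (17.0% and 6.95% of measured genes), and 78 stayed within 1.5-fold (55.5%). Cytosolic ribosomal proteins had a median of -0.12 over 85, or 0.02 with total counts, with 0 at least 2-fold higher and 3 lower (17.0% and 6.95% of measured genes). These were Rpl37rt (-1.37), Rpl17 (-1.18) and Rpl32l (-1.07), on 143 to 489 untreated reads, and genes of this family have many near-identical copies, so their counts are uncertain. The 13 protein genes of mitochondrial DNA were listed at 0 in both tables, so the messages that the mitochondrial ribosome translates were not analysed here.

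Regulators of mitochondrial gene expression were spread more widely than the genes of the set, but about as widely as all measured genes. Their quartiles lay 1.19 apart, against 0.42 for the set and 1.07 for all measured genes. Of the 17 regulators measured, 4 were at least 2-fold lower (6.95% of measured genes) and 1 was higher (17.0%), with a median of -0.44. The 4 became 3 by totals (727 of 14871 measured genes), with a median of -0.29. They became 7 by upper quartiles (1387 of 14871 measured genes), where the 1 higher became 0 (2260 of 14871). Mycn, the MYC family factor of embryonic cells, had 5287 and 1787 reads (-1.59), and Nrf1, the nuclear respiratory factor, had 4843 and 1887 (-1.39). Hcfc1, a transcriptional cofactor, had 39350 and 17751 reads (-1.18), and Pprc1, a coactivator related to PGC-1, had 8698 and 4289 (-1.05). Esrra, an orphan receptor that drives respiratory genes, was higher with 1001 and 2216 reads (1.12). The ETS factor gene Gabpa was at -0.99, while Gabpb1 and Gabpb2 of the same list were at 0.31 and 0.20. Tfam, the packaging factor of mitochondrial DNA, was at -0.21. In all, 12 of the 17 regulators were below 0 and 5 above. Proteases and stress factors had a median of -0.23 over 13, with 1 gene past 2-fold in each direction (17.0% of measured genes higher, 6.95% lower), namely Atf4 lower (8109 and 2895 reads, -1.51) and Oma1, a stress-activated protease of the inner membrane, higher (593 and 1361 reads, 1.17).

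**Figure D4:**
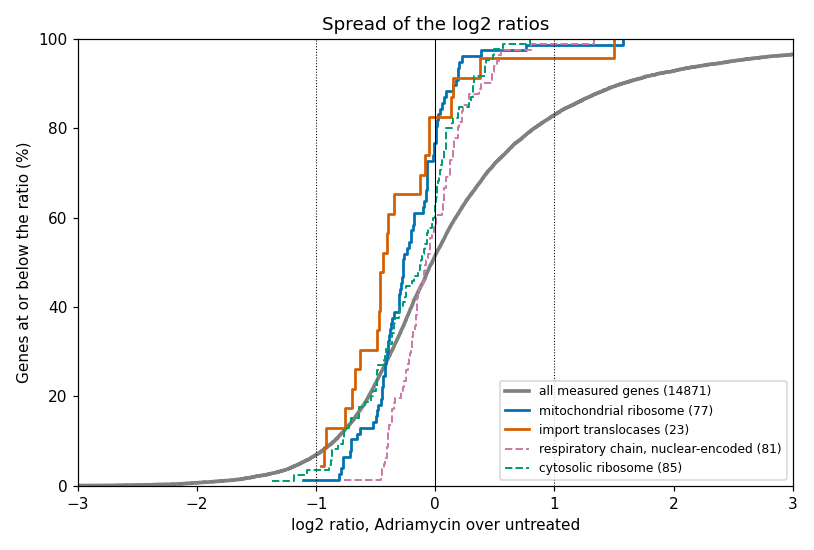
Share of genes (vertical axis, percent) at or below each log2 ratio of Adriamycin over untreated (horizontal axis, cut at -3 and 3), for all measured genes and 4 groups, with dotted lines at 2-fold. The curves of the mitochondrial ribosome and import genes rise steeply left of 0 and reach the top near 0.4 apart from single genes, while 17.0% of all measured genes lie at or beyond 1.

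**Figure D5:**
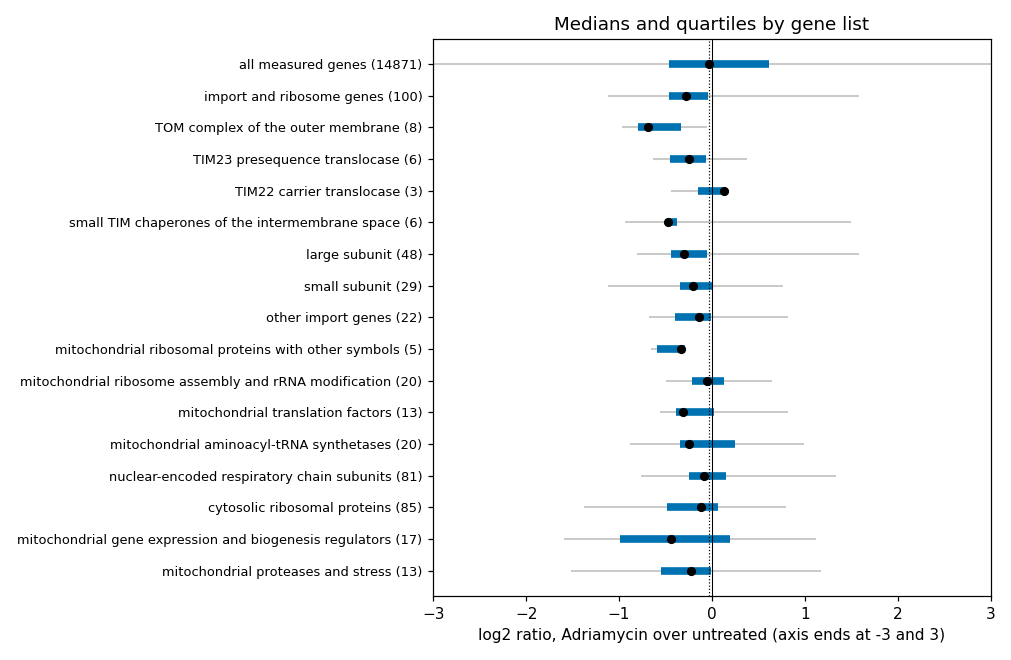
Median (dot), quartiles (thick bar) and full range (thin line, cut at -3 and 3) of the log2 ratio in each gene list, with the number of measured genes in brackets and a dotted line at the median of all measured genes. TOM genes have the lowest median at -0.69. The regulators have the widest quartiles, from -0.99 to 0.20, not far from the width for all measured genes, from -0.46 to 0.61.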

How the data were processed

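RNA-seq read counts per gene were analysed from 1 untreated and 1 Adriamycin library. The deposited values are raw counts. The counting tool, per the file headers, was featureCounts 2.0.3, which took read pairs with both ends aligned over exons of release 105 of GRCm39, with no option for strand, multi-mapping or overlapping reads. Reads of overlapping exons and near-identical copies were therefore lost or cannot be assigned. The submitters' processing notes name featureCounts 1.6.0 instead, the builds mm9 and mm10, and DESeq2 1.16.1, HISAT2 2.0.4, FastQC and Trim Galore 0.3.4 with no order. Neither source says how RNA was selected. Genes with 2 reads outnumbered genes with 1 (2067 to 1629 untreated, 2266 to 1719 with Adriamycin), so mates may have been counted separately.

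Symbols came from GENCODE M21 by identifier (52081 matched, 3333 not). The rule's wording on endings in ps was read as pseudogene endings (-ps, -ps1), since Mrps genes would otherwise be lost. Gene coordinates are from the tables (GRCm39), and promoter coordinates are GRCm38.p6. Library sizes were scaled with TMM (edgeR 4.0.16, R 4.3.3; factors 0.951 and 1.05). CPM, TPM, log2 ratios (pseudocount of 0.5 read) and exact 95% counting intervals (conditional binomial, Clopper-Pearson) were computed in Python 3.11.15 using scipy 1.17.1, and alignments using Biopython 1.88. PCR copies and mates are not independent molecules. The intervals therefore understate the error, and halving the counts gave a wider set. Where 0 reads were found, up to 3 reads (0.0754 CPM untreated, 0.0740 CPM with Adriamycin) are possible. Calls follow a rule of size (2-fold or 1.5-fold) over 14871 genes that averaged 1 CPM or more. The code was tested on simulated data. Named genes were all measured import genes, the ribosomal genes past 1.5-fold higher or 2-fold, the 5 highest and 5 lowest ratios of each subunit and the 5 highest levels per length, those at 0 or below the filter, and the extreme ratios of each other list. The genes beside Mrps18b, Mrpl16, Mrpl51, Mrpl41 and Mrpl14 were named after their values were seen. So were Tomm20l, Mrpl48-ps, Gabpa, Gabpb1, Gabpb2, Tfam and Hspa9. The genes and lists were chosen with earlier results of these data known. Alternatives were other scalings, filters, a pseudocount of 5 reads and leaving out overlapping genes.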

Additional observations from a re-analysis of the deposited data

How the results depend on the processing

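With 1 library per condition no alternative tests the spread between cultures, and leaving out a library is not possible. No paired analysis was possible because each group has 1 library and the labels give no replicate numbers. With total counts the median log2 ratio was -0.14 over all measured genes of the set, -0.30 for import genes and -0.13 for the mitochondrial ribosome. The number at least 2-fold lower was 0 (727 of all 14871 measured genes) and at least 1.5-fold lower 9 (13.5%). With upper-quartile factors the medians were -0.41, -0.56 and -0.39. Under these factors 25 genes were at least 1.5-fold lower, against 25.1% of all measured genes. At least 2-fold lower were 4 (Mrps18b, Tomm70a, Timm8a1 and Tomm5), against 1387 of all 14871. Mrpl16 and Timm8a2 were at least 2-fold higher under all 4 scalings. With no filter 2 genes were at least 2-fold lower and 3 higher, Tomm6os (15 and 5 reads) and Tomm20l (1 and 15) being added. With a mean of at least 5 CPM, 1 was at least 2-fold higher, since Timm8a2 falls under that level. The shares of all genes past 2-fold under these other filters are not given here, so these counts stand without a background. A pseudocount of 5 reads gave an import median of -0.42. Without the genes that share exon bases the medians were -0.27 overall and -0.39 for import genes. Among the 59 genes left 0 were at least 2-fold lower and 9 at least 1.5-fold lower. Over all measured genes, with overlapping ones kept, these shares were 6.95% and 18.9%. Mrps18b is among the genes left out. Median-of-ratios factors changed none of these counts. Of the 26 gene ratios recomputed, 18 left their counting interval by totals, 17 by upper quartiles and 0 with median-of-ratios factors or the larger pseudocount. None of the 3 genes past 2-fold changed sign. Genes with ratios near 0 did, 16 by totals and 9 by upper quartiles. All intervals rest on counts, so the depth limits mainly Timm8a1, Timm8a2, Timm10b and Tomm40l, each with fewer reads than the other import genes measured.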
